A study of Mus musculus with 2 samples.

Results

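Fabp4 and 6 further genes of fatty acid uptake were followed in ureter explants in which the kinase GSK3 had been inhibited: the fatty acid binding protein genes Fabp3, Fabp5 and Fabp7, and Cd36, Lpl and Gpihbp1. These 7 genes were chosen by name out of 29875 genes on the array, and 9 of its 39429 probes belong to them. Fabp4 was singled out because it had the largest fall of all genes in the comparison described here, so the values of the 7 genes in that comparison are a description: no p-value is given for them, and nothing is read from how many pass the threshold of the fit across all genes.

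Fatty acids reach a tissue mainly as triglycerides packed in lipoproteins. Lipoprotein lipase, the product of Lpl, frees them at the capillary wall, where Gpihbp1 on the endothelial surface holds the enzyme in place. Cd36 is a membrane receptor that helps the freed fatty acids enter the cell, and the small cytosolic FABP proteins bind them inside it and carry them between membranes and nucleus. Fabp4 is best known from adipocytes, macrophages and the endothelium of small vessels, Fabp3 from heart and muscle, Fabp5 from epidermis, and Fabp7 from radial glia and Schwann cell precursors.

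The RNA came from ureters of wildtype NMRI embryos at E12.5, pooled, of undetermined sex, and kept for 18 h on transwell membranes in a medium that held no fetal calf serum, per the study's methods. Control explants received the solvent DMSO (2:1000), and the others 10 µM BIO, an indirubin that blocks GSK3 and thereby turns on canonical WNT signaling. Each of 2 arrays carried control RNA in one color and BIO RNA in the other, with BIO RNA red in replicate 1 and green in replicate 2. The explants had no blood flow, and because the RNA was taken from whole pieces of tissue, each value is a mean over all cell types in them. All 12 listed markers of ureteric epithelium and all 12 of ureteric mesenchyme were bright enough to be tested.

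The probes that carry the values below are shown by their first 30 bases, 5′ to 3′, so that a reader can see which stretch of each transcript was read. Each probe is 60 bases long, and the coordinates of the whole probe are those of the files, in the mouse build mm9. The annotation of that build was not used here, so exon or UTR is not given. Capitals in the Fabp5 probe mark a stretch that also occurs in another probe on the array. Fabp4 lies at chr3:10204452-10204511 (minus strand), Fabp5 at chr3:10016185-10016244 (plus), Fabp7 at chr10:57508039-57508098 (plus), Fabp3 at chr4:129992652-129992711 (plus) with a second probe at chr4:129992643-129992702 (plus), Cd36 at chr5:17288600-17288659 (minus), Lpl at chr8:71430267-71430326 (plus) with a second probe at chr8:71425050-71425109 (plus), and Gpihbp1 at chr15:75428484-75428543 (plus).
Fabp4: aagaggcctggatggaaatttgcatcaaac
Fabp5: gtcaaatgCAACAAACAGCTTCACTTCTTT
Fabp7: tgaagcactggtcactaattataagtttgt
Fabp3: taaaactgtatccaaagggtgctccaaggt
Fabp3, second probe: tttattttttaaaactgtatccaaagggtg
Cd36: aagaatgaaaaatgaacaattcacatgtga
Lpl: gaacaccaacccacatgcaaaaccccacaa
Lpl, second probe: cgaggtttccacaaataaaacctactcctt
Gpihbp1: gctggaccaaatttggtaatatagccctcc

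Among the probes of the FABP family the longest run shared by probes of different genes was 10 bases, so the probe letters set these close relatives apart. The probe of Fabp5 was the exception among the 7 genes. It shared a run of 50 bases with a probe that the files list only as NAP114472-1, and its value is therefore uncertain as a measure of Fabp5 alone. The 2 probes of Fabp3 shared 51 bases and were not independent readings, whereas those of Lpl lay apart.

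In plain terms, the message of Fabp4 nearly disappeared from the explants in BIO, and those of Gpihbp1 and Lpl were several-fold lower. Cd36 and Fabp7 were lower by less than 2-fold, and the ratios of Fabp3 and Fabp5 lay closest to 1. All 7 genes had a normalized log2 ratio of BIO over control below 0 on both arrays, which held for 38.1% of all tested genes. For description, 5 of the 7 were past the threshold of the fit across all genes (limma, Benjamini-Hochberg adjusted p below 0.05) on the lower side and 0 on the higher side. Of the 21574 tested genes 14.9% fell, 9.27% rose and 24.2% changed in either direction. The median log2 ratio of BIO over control was -0.73 for the 7 genes and -0.008 for all genes, and neither this difference nor the count is evidence about the 7 genes, since they were chosen with it in view.

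**Figure D1:**
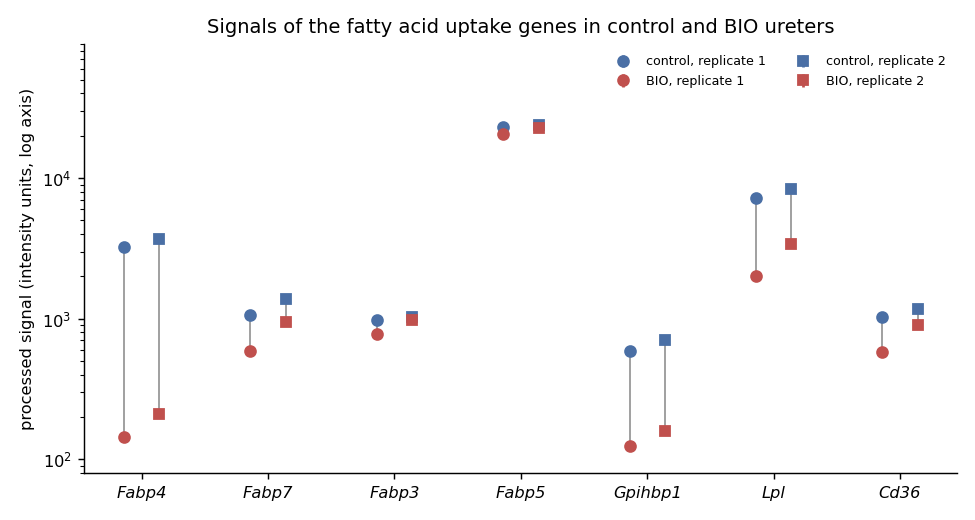
Processed signals (log axis, arbitrary units of the scanner) of the probe used for each gene in control and BIO RNA, with a line joining the channels of each array. The second probes of Fabp3 and Lpl are not shown. Error bars are the SD over the spots of the probe on that array. Signals can be compared between control and BIO of 1 probe, not between probes. The Fabp4 line drops from 3255 to 143 in replicate 1 and from 3707 to 208 in replicate 2.

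Fabp4, the adipocyte and endothelial FABP, had processed signals of 3255 and 3707 in the control RNA of replicates 1 and 2, and of 143 and 208 in the BIO RNA. Both BIO signals lay far below both control signals. The normalized log2 ratios were -4.30 and -4.07, with a mean of -4.18 (SD 0.16, n = 2 arrays), which is an 18.2-fold lower level and leaves 5.50% of the control level. The 4 spots of the probe gave ratios between -4.39 and -4.23 on replicate 1 and between -4.15 and -4.01 on replicate 2. The spots of one array therefore did not overlap with those of the other, though the arrays differed by little against the size of the fall. The probe remained well above background in BIO on both arrays, so the ratio is a measured value and not a bound. The next gene in the order of all falls was Apela at -3.62, which lay 0.46 above Fabp4 on replicate 1 and 0.66 above it on replicate 2.

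The 5 genes whose pair of ratios lay nearest to that of Fabp4, by the larger of the differences on the 2 arrays, were Apela (0.66), Foxq1 (0.95), Tm4sf1 (1.37), Gimap4 (1.46) and Scin (1.53). Apela encodes a peptide ligand of the apelin receptor, and Foxq1 a forkhead transcription factor. With 2 arrays this is a likeness in the size of the fall alone. The other FABP genes that lie beside Fabp4 on chromosome 3 did not give a value to compare, apart from Fabp5: Pmp2, Fabp9 and Fabp12 were too dim to be tested. Fabp5, the nearest measured neighbor of the family, had a log2 ratio 4.09 above that of Fabp4 on replicate 1 and 3.98 above it on replicate 2.

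Gpihbp1, the endothelial anchor of lipoprotein lipase, had control signals of 586 and 711 and BIO signals of 124 and 159. The BIO signals were low in both replicates and did not overlap with those of the controls. Its log2 ratios of -2.14 and -2.03 had a mean of -2.08 (SD 0.079, n = 2), a 4.24-fold lower level, and differed between the arrays by less than those of any other of the 7 genes.

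Lpl, the gene of the lipase itself, had control signals of 7201 and 8308 and BIO signals of 2000 and 3400. Control and BIO did not overlap, but the BIO signal of replicate 2 was clearly above that of replicate 1. The log2 ratios were -1.87 and -1.28, with a mean of -1.58 (SD 0.42, n = 2) and a 2.98-fold lower level. The second probe, which lies more upstream in the gene, gave signals of 2004 and 2261 in control and of 704 and 1053 in BIO, and a mean log2 ratio of -1.32. Both probes of Lpl thus showed the fall.

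Cd36, the fatty acid receptor of the plasma membrane, had control signals of 1030 and 1167 and BIO signals of 584 and 898. The signals of the groups did not overlap. The log2 ratios of -0.87 and -0.37 averaged to -0.62 (SD 0.35, n = 2), a 1.54-fold lower level, with a difference between the arrays that was large against the mean. One of the 4 Cd36 spots of replicate 2 had been marked as an outlier and was left out.

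Fabp7, the brain-type FABP, had control signals of 1058 and 1386 and BIO signals of 588 and 953. Again the groups did not overlap, with the BIO signal of replicate 2 close to the control signal of replicate 1. Its log2 ratios were -0.91 and -0.54, with a mean of -0.73 (SD 0.26, n = 2) and a 1.65-fold lower level.

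Fabp3, the muscle-type FABP, had control signals of 982 and 1032 and BIO signals of 784 and 971. The BIO signal of replicate 2 lay just below the control signals, so the separation came mainly from replicate 1. The log2 ratios were -0.38 and -0.13, with a mean of -0.26 (SD 0.18, n = 2), and the overlapping second probe gave -0.25.

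Fabp5, the epidermal FABP, had control signals of 22980 and 23810 and BIO signals of 20550 and 22630. These differed little, although the BIO values were the lower ones. Its log2 ratios of -0.21 and -0.09 had a mean of -0.15 (SD 0.089, n = 2), and the sign of this mean turned to 0.035 when the arrays were centered on their median instead of normalized by loess. The probe that shares 50 bases with it gave a mean log2 ratio of -0.10. Fabp3 and Fabp5 were the 2 genes not past the threshold.

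For all 7 genes both BIO signals were below both control signals, which was so for 26.4% of all tested genes. The fall was larger on replicate 1 than on replicate 2 for all 9 probes, and 58.6% of all genes had the lower ratio on replicate 1. In replicate 1 the BIO RNA carried the red dye and in replicate 2 the green one, so a dye effect and a difference between the explant pools cannot be told apart. By a simpler rule, which asks for a ratio of 2 or more in the processed signals of each array and a brighter signal of at least 100, the 3 genes Fabp4, Gpihbp1 and Lpl counted as lower and 0 of the 7 as higher. This rule took 2.04% of all genes as lower, 1.04% as higher and 3.08% in total.

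**Figure D2:**
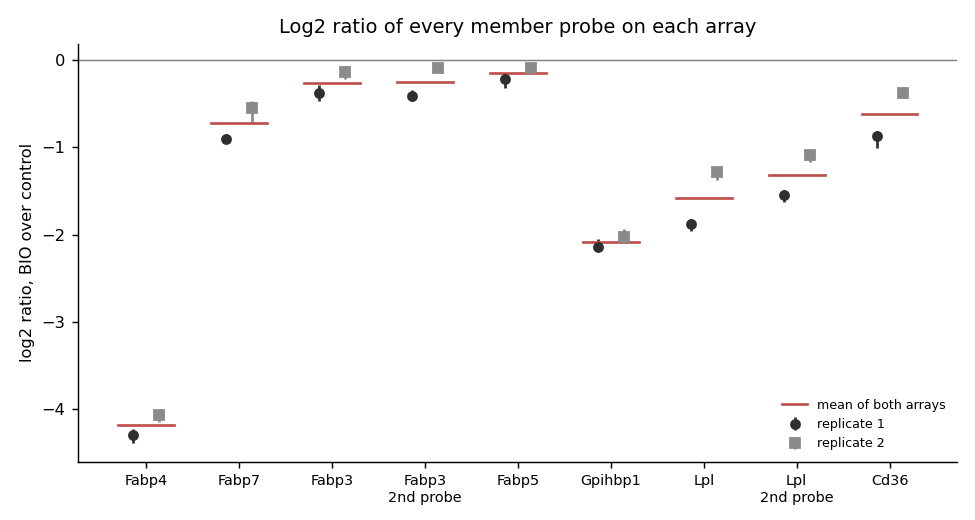
Log2 ratio of BIO over control for the 9 probes, with a point per array and a bar for the mean of the 2 arrays. Error bars run from the lowest to the highest spot of the probe on that array and do not show the spread between arrays. Fabp4 stands at -4.18, Gpihbp1 at -2.08 and Lpl at -1.58, whereas Fabp3 and Fabp5 lie near 0.

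**Figure D3:**
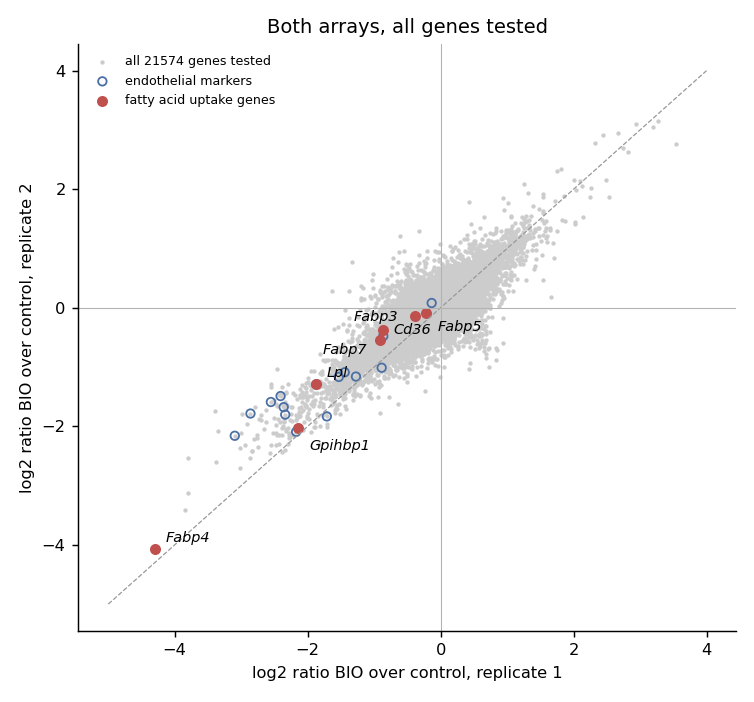
Log2 ratios of BIO over control on replicate 1 (x axis) and replicate 2 (y axis) for all tested genes (grey) and the 7 genes (labeled). Fabp4 lies at the lower left end of all genes, at -4.30 and -4.07.

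Other genes that handle fatty acids were read from 7 lists, with the regulators of endothelial Fabp4 and Cd36 as a list apart. The 7 lists held 100 genes, of which 87 could be tested; 19 fell, 2 rose and 66 did not pass. The share that changed in either direction was thus close to the 24.2% of all tested genes. The directions were divided otherwise: 19 of the 87 fell and 2 rose, whereas 14.9% of all tested genes fell and 9.27% rose. This difference was not tested. Nothing is read from it, since the lists were chosen with earlier results of these data known. Some genes stand in more than 1 list and were counted once in these totals. The median of each list stayed below 0 with other background corrections and with median centering. Of 36 changed genes picked from these and the cell type lists, 21 kept their call with the signals processed by Feature Extraction, 29 when arrays were median-centered and 6 in the rounded score table, and all 36 kept their direction.

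The other intracellular lipid-binding proteins, which share the barrel fold of the FABPs, included 5 testable genes of 11, and 1 of these fell. This was Crabp1, a retinoic acid binding protein (log2 ratio -0.59, SE 0.15; limma, adjusted p = 0.0258). The remaining 4, did not pass, and the median of the list was -0.18. Crabp1 lost the call with the processed signals (adjusted p = 0.139) and when dim probes were kept (0.0604).

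In the list of fatty acid transport and activation 3 of 14 genes fell, 1 rose and 10 did not pass, with a median of -0.07. The genes that fell were Cav2 (-1.90, SE 0.12; adjusted p = 6.08e-05) and Cav1 (-1.72, SE 0.12; adjusted p = 8.66e-05), which encode the coat proteins of caveolae and are abundant in endothelium, and Acsl1 (-0.91, SE 0.14; adjusted p = 0.00214), which couples fatty acids to coenzyme A. Slc27a2, a very long chain acyl-CoA synthetase and transporter, was the gene that rose (0.69; adjusted p = 0.00698); it is named after its value was seen. Acsl1 and Slc27a2 were no longer called with the processed signals (adjusted p = 0.0564 and 0.0626), nor was Slc27a2 with median centering (0.0558). Slc27a2 had low signals, of 59.1 and 72.7 in control and of 142 and 120 in BIO. Other probes of Cav2 gave -1.84 and -0.99.

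Other genes of lipoprotein lipolysis showed little change. Of 16 such of lipolysis and lipoprotein receptors, among them the lipase maturation factor Lmf1 and the inhibitor Angptl4 (log2 ratios of -0.07 and -0.22; named after their values were seen), 13 were testable and 0 passed, with a median of -0.10. At an offset of 16, or without background correction, 1 of the 13 fell.

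The PPAR nuclear receptors bind fatty acids and their derivatives, and Fabp4, Cd36 and Lpl are classical target genes of PPARγ. Pparg had signals of 3330 and 3209 in control and of 918 and 1406 in BIO, which did not overlap, and it fell with a log2 ratio of -1.54 (SE 0.15; limma, adjusted p = 0.000305). Ppara had a log2 ratio of -0.21 and Ppard of -0.025, and neither passed. The coactivator genes Ppargc1a (-0.81, SE 0.12; adjusted p = 0.0019) and Ppargc1b (-0.38, SE 0.12; adjusted p = 0.0453) also fell, which made 3 of 11 genes, while 0 rose and 8 did not pass. With the processed signals Pparg was the single gene of this list to pass, and Ppard changed sign (0.023). Ppargc1b had low signals, of 58.8 and 65.3 in control and of 38.9 and 52.0 in BIO. In control ureters of a later stage, the study saw Pparg RNA in the epithelium only. Whether the fall of Pparg had a part in the values of Fabp4, Cd36 and Lpl was not tested.

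Other known PPAR targets gave 3 falls, 0 rises and 10 genes that did not pass among 13 testable genes of 16, with a median of -0.25. Among the falls were those of Acsl1 and of Pdk4, a kinase that restrains pyruvate dehydrogenase (-0.68, SE 0.11; adjusted p = 0.00318). With the processed signals 1 gene of the list was called, and this was Pdk4. Plin2, Angptl4 and Cpt1a, often used as PPAR target genes, had log2 ratios of -0.25, -0.22 and -0.35 and did not pass; they are named after their values were seen.

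Of 20 genes of mitochondrial beta oxidation 3 fell, 0 rose and 17 did not pass (median -0.22). These were Etfb, a subunit of the electron transfer flavoprotein (-0.51; adjusted p = 0.015), Acadvl, the very long chain acyl-CoA dehydrogenase (-0.50; adjusted p = 0.0128), and Decr1 (-0.41; adjusted p = 0.0435). None of the 3 was called with the processed signals or with median centering, where 0 genes of the list passed. Other probes of Etfb gave -0.46 and -0.19.

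Triglyceride storage had 7 falls, 1 rise and 10 genes that did not pass among 18 testable genes of 20, with a median of -0.29. Among the falls Cidea was dim, with signals of 17.2 and 23.4 in control and of 8.2 and 7.2 in BIO. Its ratio is therefore uncertain, and it is named after its values were seen. The falls with the largest size were those of Lpin1, a phosphatidic acid phosphatase (-1.19, SE 0.11; adjusted p = 0.000212), Pnpla2, the adipose triglyceride lipase (-0.72, SE 0.12; adjusted p = 0.00336), and Mgll, the monoglyceride lipase (-0.57, SE 0.13; adjusted p = 0.0163). Pnpla2 and Mgll act in the breakdown of triglycerides. A second, dim probe of Lpin1 gave -0.13. Dgat2, an enzyme of triglyceride synthesis, was the gene that rose (0.46; adjusted p = 0.0177), and it is named after its value was seen. With the processed signals 2 genes of the list fell and 0 rose, and with median centering 4 fell and 0 rose.

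Described regulators of Fabp4 and Cd36 in endothelium gave 7 falls, 0 rises and 5 genes that did not pass among 12 genes (median -0.76). Kdr, the main VEGF receptor of endothelial cells, had a log2 ratio of -2.63 (SE 0.20; adjusted p = 0.000102), Hey1, a target of Notch signaling, of -1.96 (SE 0.15; adjusted p = 0.000109), and Flt1, another VEGF receptor, of -1.94 (SE 0.24; adjusted p = 0.000822). A second probe of Kdr gave -0.94, and other probes of Flt1 gave -1.45 and -0.34. Meox2 and Tcf15, partners in a transcription factor dimer described to act on both genes, fell with log2 ratios of -1.13 and -1.53, and are named after their values were seen. Meox2 had low signals, of 106 and 138 in control and of 28.3 and 66.2 in BIO. With the processed signals its ratio was -1.49, so its size is uncertain. The ligand genes Vegfa and Vegfb (-0.06 and 0.29; likewise named afterwards) did not pass. With the processed signals 4 of the 12 fell, and Flt1 and Meox2 lost their calls (adjusted p = 0.0605 and 0.0591). Kdr also stands in the list of endothelial markers below. A part of these regulators in the values of Fabp4 and Cd36 was not tested. In bulk RNA it cannot be told apart from the fall of the endothelial markers.

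**Figure D4:**
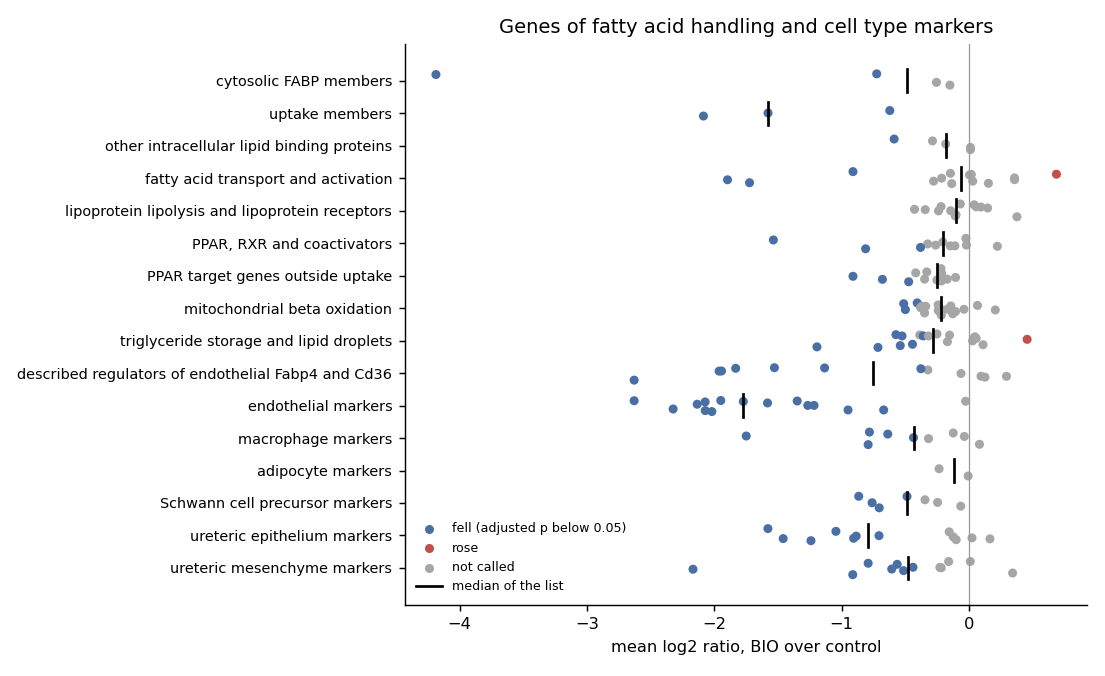
Log2 ratio of BIO over control for each tested gene (points) in the gene lists, with each list's median as a bar, and the test's call shown by color. The endothelial list has a median of -1.77, below that of every list of fatty acid handling outside the 7 genes.

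Because Fabp4, Gpihbp1 and Cd36 are genes of endothelium and of other small cell populations, markers of the cell types that the explants could hold were read beside them. Of 15 endothelial markers 14 fell and 0 rose, with a median log2 ratio of -1.77, and Vwf did not pass (-0.027). Their summed processed signal went from 39110 to 7674 in replicate 1 and from 47380 to 14380 in replicate 2. Vwf was dim, with signals of 35.9 and 49.4 in control and of 34.2 and 55.3 in BIO, so its ratio is uncertain. Erg, among the 14, was dim too, with signals of 23.5 and 23.6 in control and of 3.4 and 9.6 in BIO. Its ratio is therefore uncertain, and it is named after its values were seen. Among these markers were Cdh5 (-2.32, SE 0.22; adjusted p = 0.000245) and Pecam1 (-2.13, SE 0.11; adjusted p = 2.79e-05), adhesion proteins of endothelial junctions. In such bulk RNA, fewer cells of a type and less RNA per cell cannot be told apart, and the part of the endothelial fall in the values of the uptake genes was not tested.

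Set against the 15 endothelial markers within each array, the 7 genes spread over a wide range. Of the markers 0 had a lower ratio than Fabp4 on either array. Gpihbp1 had 7 markers below it on replicate 1 and 2 on replicate 2, and Lpl 7 and 9, so both lay inside the range of the markers. Cd36 had 13 and 14 of the 15 below it, Fabp7 12 and 13, and Fabp3 and Fabp5 14 on both arrays. Fabp4 was 1.20 below Kdr, the endothelial marker with the largest fall, on replicate 1 and 1.91 below it on replicate 2. Fabp4 had been chosen for the largest fall of all genes. Its place below the markers follows from that choice and does not set it apart from endothelial genes.

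Macrophages also express Fabp4, Cd36 and Lpl. Of 9 testable macrophage markers out of 10, 5 fell, 0 rose and 4 did not pass (median -0.44), and the summed signal went from 7124 to 4932 in replicate 1 and from 8222 to 7011 in replicate 2. The largest falls were those of Cx3cr1, the fractalkine receptor (-1.75, SE 0.14; adjusted p = 0.000139), Aif1 (-0.79; adjusted p = 0.011) and Ptprc (-0.78; adjusted p = 0.00149). With the processed signals 2 of the 9 fell, and Aif1 lost its call (adjusted p = 0.118). The share of the macrophage values in those of Fabp4, Cd36 and Lpl was not tested.

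Most adipocyte markers were at or near background. The defining genes Adipoq, Lep, Plin1, Cidec and Cfd were not well above background, and the 2 markers that could be tested, Retn (-0.007) and Cebpa (-0.23), did not pass. Cebpa, which other cell types express too, had signals of 136 and 146 in control and of 132 and 113 in BIO.

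Fabp7 is also a marker of Schwann cell precursors, and 4 of 7 testable markers of these cells out of 8 fell, 0 rose and 3 did not pass (median -0.49). Their summed signal went from 24240 to 17430 in replicate 1 and from 25220 to 23170 in replicate 2. Ngfr (-0.87, SE 0.11; adjusted p = 0.000981), S100b (-0.76, SE 0.11; adjusted p = 0.00198) and Cdh19 (-0.71, SE 0.11; adjusted p = 0.00281) had the largest falls. The log2 ratio of Fabp7 was below those of these 3 genes on replicate 1 and above them on replicate 2. The part of these cells in the value of Fabp7 was not tested.

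Some markers of the main tissues of the ureter fell too. Of the 12 markers of ureteric epithelium 7 fell, 0 rose and 5 did not pass (median -0.80), among them Ret (-1.46; adjusted p = 0.000534) and Krt19 (-1.24; adjusted p = 0.000197). Upk1b, a uroplakin gene, also passed (adjusted p = 7.6e-05), but it was not well above background in BIO on either array, so its ratio is only a bound and no fold is given. Ret lost its call with the processed signals (adjusted p = 0.0503), where 4 of the 12 fell. The summed signal of these markers went from 88400 to 51820 and from 90410 to 62070 in replicates 1 and 2. The 5 that did not pass were Epcam (0.02), Cldn4 (-0.12), Gata3 (-0.10), Elf3 (0.16) and Grhl2 (-0.16), named after their values were seen.

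Of the 12 markers of ureteric mesenchyme 7 fell, 0 rose and 5 did not pass (median -0.48). Their low end was Pdgfrb (-2.17; adjusted p = 7.07e-05), Col3a1 (-0.91; adjusted p = 0.00198) and Pdgfra (-0.79; adjusted p = 0.00173). Their summed signal went from 335300 to 224500 and from 356300 to 247900. With the processed signals 3 of these genes fell, and with median centering 2 fell and Col3a1 lost its call (adjusted p = 0.0523). The 5 that did not pass in the main fit were Tbx18 (-0.22), Tbx2 (0.01), Tbx3 (0.34), Foxf1 (-0.16) and Sox9 (-0.23). They are named after their values were seen.

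**Figure D5:**
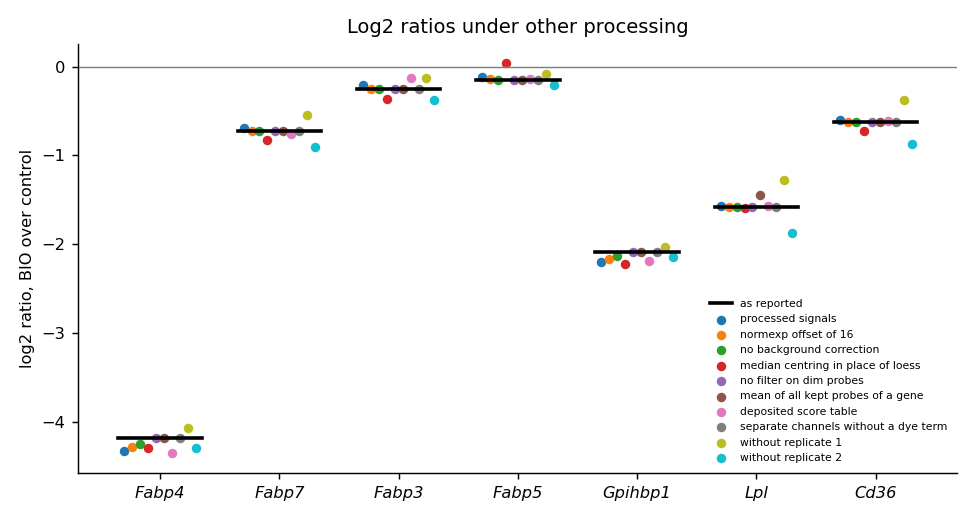
Log2 ratio of BIO over control of the 7 genes under each way of processing the arrays, with 1 mark per processing. Fabp4, Gpihbp1, Lpl, Cd36, Fabp7 and Fabp3 stay below 0 throughout, and Fabp5 crosses 0 with median centering.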

How the data were processed

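RNA of control and BIO explants was hybridized on 2 two-color Agilent arrays with exchanged dyes, 1 pool of ureters per RNA. The authors scanned the arrays with Feature Extraction 10.7.3.1, per the submitters' processing notes. The deposited mean and background intensities had not been normalized by the authors, whereas the deposited processed signals had been background-subtracted and dye-normalized. The authors also deposited a score per probe, which tracks the fold change between BIO and control with a sign for its direction, and whose making and centering are not stated. Its column medians were 1 and 1.

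With limma 3.58.1 in R 4.3.3, intensities were corrected by normexp (offset 50) and loess-normalized within each array. Control spots and outliers (3.49% and 3.16% of the biological spots) were left out, 0 spots were saturated, and 4 spots per probe were averaged. Ratios were turned to BIO over control. A probe was tested when over a share of 0.5 of its spots was well above background in control on both arrays or in BIO on both (28824 probes, 21574 genes). For each gene the probe of highest mean intensity was used. Ratios were tested against 0 by lmFit and eBayes (two-sided), and p-values were adjusted over all genes (Benjamini-Hochberg, 0.05). The arrays leave 1 degree of freedom per gene, so that their number limits the precision. The estimated prior had 7.14 degrees of freedom, and the median SE was 0.111. The fit was tested on simulated data. Of the probes, 28328 were named through RefSeq accessions, 3643 by symbol or synonym, and 7458 kept the file's name.

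The 7 genes and the lists were chosen with earlier results of these data known. Named genes were the 7 at all probes, the 3 PPAR genes, up to 3 genes per list with the largest called change, and the 5 nearest to Fabp4. The value of 1 gene that this rule names is not reported here. Alternatives covered the signals, offset, centering, filter, probe choice, separate channels, the score table and a 2-fold rule.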

Additional observations from a re-analysis of the deposited data

How the results depend on the processing

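Among 70 values of the 7 genes under alternatives, 64 stayed within the spread of the arrays, 5 moved and 1 turned: Fabp5 from -0.15 to 0.035 with median centering. Part of the 64 could not have moved, so this count does not measure robustness. The ratio of a single array always lies within that spread. Keeping dim probes and separate channels returned the same ratios, as did averaging probes for genes with a single probe. Fabp4 moved to -4.36 (score table), and Gpihbp1 to -2.20 (processed signals), -2.17 (offset 16), -2.22 (median centering) and -2.19 (score table). Of all genes 5223 were called, against 2011 from the processed signals, 2823 after median centering, 3248 from the deposited scores and 665 by the 2-fold rule. Of the calls from the scores, 40.6% were falls, against 61.7%. Of the 7 genes, as a description, 5 were called, against 3 with processed signals (Cd36 and Fabp7 were lost), 3 with the score table (Fabp4, Fabp5, Gpihbp1) and 3 by the 2-fold rule. Of the 155 testable genes of the lists 64 were called, against 35, 18 and 25 in these settings. The cause of these changes was not tested. In the rounded score table the log2 ratio of Fabp5 was -0.14, and 22% of all tested genes had identical values on both arrays. A call of so small a ratio in that setting is therefore uncertain.

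Leaving out 1 array gave the ratio of the other, from -4.30 to -4.07 for Fabp4, -2.14 to -2.03 for Gpihbp1, -1.87 to -1.28 for Lpl, -0.91 to -0.54 for Fabp7, -0.87 to -0.37 for Cd36, -0.38 to -0.13 for Fabp3 and -0.21 to -0.09 for Fabp5, with no test. The ratios within arrays already pair control and BIO of one number, so the test of these ratios is itself paired, and no further block could be fitted. The smallest log2 change called was 0.35, and no smaller change was called.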
